A study of Mus musculus with 2 samples.

Results

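The 34 genes described here make cholesterol and fatty acids in the liver or control that synthesis, out of 32287 features counted in each library. They were taken by symbol from a named list: 19 genes of the sterol branch, 5 regulators and 10 genes of the fatty acid branch. The genes were chosen by name with their UMI levels in the 2 libraries already known, so the difference between the libraries is given as a description and supports nothing. Both libraries come from livers of wild-type C57BL/6J mice that had been given AAV-shBicd2 or AAV-scramble (AAV, an adeno-associated virus) when 4 weeks old. The mice received concanavalin A (Con A), a plant lectin that activates T cells and injures the liver, 3 weeks after the virus, at 15 mg/kg by vein, and livers were taken 6 h later. What the groups share is therefore the strain, an AAV and Con A; neither group is untreated. Each group has 1 library, with the number of livers behind it not given in the sources used here, so no difference has a replicate check and no test was possible. All intervals are at 95% and cover counting error alone.

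Sterol synthesis joins acetyl units into mevalonate, builds farnesyl diphosphate from it, couples that into squalene, and closes and trims the rings to cholesterol. Fatty acid synthesis uses the same acetyl units, which are carboxylated, joined into palmitate, and then elongated or desaturated. Both branches are driven by SREBP transcription factors, which SCAP escorts from the endoplasmic reticulum when sterols are scarce, while INSIG proteins hold the complex back. In liver, SREBP2 acts mostly on sterol genes and SREBP1c, with insulin and the LXR receptors, mostly on fatty acid genes.

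The promoters of 28 of the 34 genes were found in RefSeq (GRCm38.p6) as 37 windows of 300 bases, from 250 before to 50 after the start, in which motifs were counted. Of these, 5 are shown for the genes that the ratios turn on, as the bases upstream of the start alone (219 to 250 bases). Nsdhl (chrX:72918271-72918520), Mvk (chr5:114444019-114444268) and Hmgcs1 (chr13:119690101-119690350) had the highest sterol ratios between the libraries among these 28, Elovl5 (chr9:77917115-77917363) the highest fatty acid ratio and Elovl6 (chr3:129532136-129532354) the lowest. Each sequence lies on the plus strand and ends before the annotated gene start, with CCAAT, or its reverse ATTGG, in capitals, and in Hmgcs1 also TCACNCCAC, where N is any base.
Nsdhl: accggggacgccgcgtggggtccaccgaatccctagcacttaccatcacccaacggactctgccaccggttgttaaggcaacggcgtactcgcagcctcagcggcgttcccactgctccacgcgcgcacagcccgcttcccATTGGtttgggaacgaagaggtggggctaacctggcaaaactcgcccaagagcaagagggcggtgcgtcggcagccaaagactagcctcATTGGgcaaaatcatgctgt
Mvk: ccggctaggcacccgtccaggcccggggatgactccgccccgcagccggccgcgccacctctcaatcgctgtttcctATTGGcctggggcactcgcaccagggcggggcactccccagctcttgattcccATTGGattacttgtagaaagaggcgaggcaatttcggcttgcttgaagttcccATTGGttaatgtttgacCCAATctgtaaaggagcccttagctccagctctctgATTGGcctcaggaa
Hmgcs1: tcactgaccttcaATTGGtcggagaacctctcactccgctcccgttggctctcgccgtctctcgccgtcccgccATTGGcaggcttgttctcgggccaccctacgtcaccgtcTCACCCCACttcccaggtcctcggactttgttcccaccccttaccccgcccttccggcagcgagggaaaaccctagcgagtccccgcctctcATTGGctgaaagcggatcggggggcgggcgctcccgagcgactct
Elovl5: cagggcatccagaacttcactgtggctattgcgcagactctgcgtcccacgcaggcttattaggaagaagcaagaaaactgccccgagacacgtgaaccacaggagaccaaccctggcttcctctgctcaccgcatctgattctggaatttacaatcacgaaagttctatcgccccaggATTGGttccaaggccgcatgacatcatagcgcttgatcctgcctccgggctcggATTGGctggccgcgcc
Elovl6: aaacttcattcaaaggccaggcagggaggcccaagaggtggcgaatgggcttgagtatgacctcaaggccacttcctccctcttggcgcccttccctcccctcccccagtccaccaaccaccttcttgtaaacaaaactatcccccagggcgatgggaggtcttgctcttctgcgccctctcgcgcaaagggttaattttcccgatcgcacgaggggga
CCAAT, the letters bound by the factor NF-Y, stood in 14 of 15 sterol genes, 4 of 5 regulators and 5 of 8 fatty acid genes on either strand, beside 41.1% of all 27025 genes and 37.4% of all 32851 windows. The printed stretches hold 2 copies in Nsdhl, 5 in Mvk, 3 in Hmgcs1, 2 in Elovl5 and 0 in Elovl6. TCACNCCAC, the core letters of the classical sterol regulatory element, stood in 1 of the 28 genes, Hmgcs1, at base -137 from the start, beside 1.44% of all genes and 1.24% of all windows. GGGCGG, the letters bound by Sp1, stood in 14 of 15 sterol genes and 3 of 8 fatty acid genes, beside 38.2% of all genes and 35.7% of all windows. A match is a description of letters and no site was measured.

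The libraries labelled scramble and shBicd2 held 2805 and 3038 barcodes with 5086306 and 5624055 UMIs (unique molecular identifiers, each standing for 1 RNA molecule). They shared 3 barcode sequences. After filtering, 2425 and 2628 barcodes lay outside clusters named for another cell class and are called hepatocyte barcodes, with medians of 1574 and 1582.5 UMIs. Their 13 hepatocyte markers summed to 10417 and 12958 UMIs per 1000000 (CPM), with 0 of the 13 at 0. These barcodes carried little mitochondrial RNA, medians of 0.174% and 0.330%, and much of the nuclear RNA Malat1, 35570 and 25838 CPM. Erythroid markers summed to 189 and 335 CPM, neutrophil markers to 60.5 and 208 CPM, and cholangiocyte-list markers to 565 and 2398 CPM with 5 of 10 at 0 in both. Bicd2, the targeted gene, had 14.2 CPM (64 UMIs) with the scramble label and 20.04 CPM (101 UMIs) with the shBicd2 label and so was not lower there, a ratio of 1.41 (1.02 to 1.96). Directions below are therefore between libraries by their labels; a loss of Bicd2 was not seen. Whether the depth, cell make-up or RNA content named here plays a part in the ratios was not tested.

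Sterol genes stood higher in the library labelled shBicd2, and, taken as a group, most of all those of the first steps. Single genes did not follow the order of the steps. Over the 19 genes the summed level in hepatocyte barcodes was 832 CPM (scramble label) and 2306 CPM (shBicd2 label), and the ratio of the second to the first, the direction of each library ratio below, was 2.77 (2.67 to 2.88). All 19 had a ratio above 1, and 15 reached 2-fold, beside 9.46% of the 9459 genes with at least 50 UMIs. The median log2 ratio was 1.55 over the 19 and 0.13 over the 9459 genes, of which 59.0% were higher. Since this contrast chose the genes, these counts are not evidence of anything further. Over all 2729 and 2941 kept barcodes 14 of 19 reached 2-fold, beside 9.23% of genes. In sums of this kind, fewer barcodes with a gene and fewer UMIs per barcode cannot be told apart, and UMIs from 3′ ends are not compared between genes.

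The 7 genes from acetyl-CoA to farnesyl diphosphate summed to 212 and 872 CPM, a ratio of 4.12 (3.84 to 4.42), and each passed 2-fold. Hmgcs1 (chr13:119690379-119708260), which makes HMG-CoA, had 64.7 and 326 CPM, or 5.04 (4.45 to 5.73), and was detected in 8.99% and 29.8% of hepatocyte barcodes. Fdps (chr3:89093588-89101959, minus strand), the farnesyl diphosphate synthase, was measured at 49.0 and 276 CPM, or 5.63 (4.88 to 6.51), in 7.88% and 31.5% of barcodes. The mevalonate kinase Mvk (chr5:114444269-114460591) rested on 13 and 88 UMIs, 2.88 and 17.5 CPM, so its ratio of 6.06 has a wide interval of 3.37 to 11.8. Pmvk and Mvd, the next enzymes after Mvk, had ratios of 4.00 (3.08 to 5.25) and 3.42 (2.61 to 4.54). Idi1, the isomerase of the isoprene units, and Acat2, the thiolase that starts the pathway, were nearest the 2-fold line from above at 2.17 (1.86 to 2.52) and 2.03 (1.39 to 2.99).

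From squalene on, the 11 enzymes summed to 546 and 1344 CPM, a lower ratio of 2.46 (2.35 to 2.58), and 8 of 11 reached 2-fold. Nsdhl (chrX:72918557-72958514), a dehydrogenase that removes methyl groups from the sterol ring, had the highest ratio of the 34 genes: 12.6 and 83.1 CPM, or 6.58 (4.98 to 8.84). Fdft1, the squalene synthase, had 12.4 and 68.5 CPM, or 5.52 (4.15 to 7.45). Msmo1, a methyl sterol oxidase, had 110 and 378 CPM, a ratio of 3.42 (3.1 to 3.79). Tm7sf2 and Hsd17b7, which reduce the sterol ring, had ratios of 3.80 (2.57 to 5.78) and 2.94 (2.44 to 3.57). Dhcr7, Lss and Cyp51, a late reductase, the cyclase and a demethylase, lay close together at 2.31, 2.21 and 2.13. Sqle, a rate-limiting epoxidase, was at 1.80 (1.62 to 2.0), Sc5d at 1.68 (1.49 to 1.89) and the isomerase Ebp at 1.35 (1.10 to 1.66), so these 3 enzymes did not reach 2-fold. Stard4, which carries cholesterol between membranes and makes none, was the lowest of the sterol branch, 75.1 and 90.7 CPM, a ratio of 1.21 (1.05 to 1.39).

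**Figure D1:**
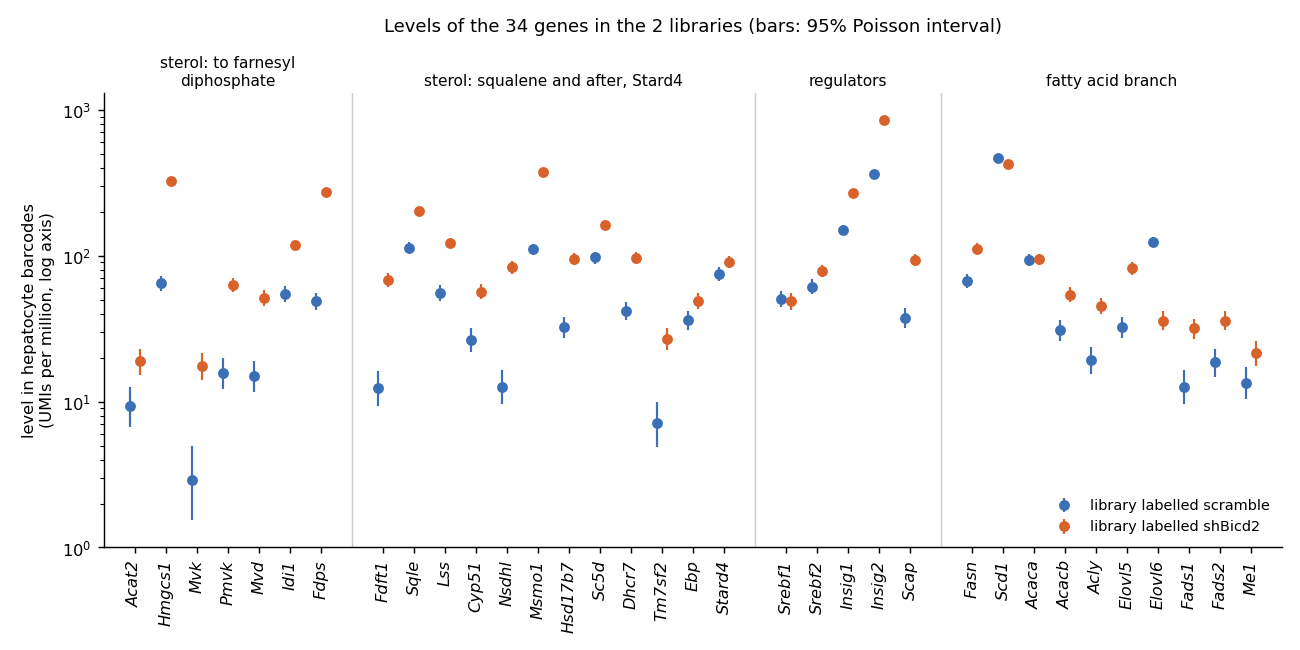
Levels of the 34 genes in hepatocyte barcodes of the 2 libraries, in CPM on a log axis; points are the libraries and bars are 95% Poisson intervals. The 19 sterol genes sit higher in the library labelled shBicd2, while Elovl6 is at 124 and 35.9 CPM and Scd1 at 467 and 424 CPM.

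Among the regulators, the genes of the sterol sensor stood higher and the transcription factor genes much less so. Insig2 (chr1:121304353-121332589, minus strand), which holds the SCAP complex in the endoplasmic reticulum, was at 362 and 851 CPM, a ratio of 2.35 (2.22 to 2.49). Scap, the escort itself, was at 37.5 and 93.3 CPM, a ratio of 2.49 (2.08 to 2.99). Insig1, which SREBP itself induces, was at 150 and 268 CPM, a ratio of 1.78 (1.62 to 1.96). Srebf2, which encodes SREBP2, had a ratio of 1.28 (1.10 to 1.5). Srebf1, which encodes SREBP1, was at 50.5 and 48.6 CPM, a ratio of 0.962 with an interval of 0.80 to 1.16 that holds 1. The deposited counts do not separate the isoforms of Srebf1. By gene, 4 of 5 regulators were higher, beside 59.0% of all genes, and 2 reached 2-fold, beside the same 9.46%, with a median log2 ratio of 0.83.

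As a sum the fatty acid branch did not share the sterol pattern, though most of its genes were higher. Its 10 genes summed to 879 and 937 CPM, a ratio of 1.07 (1.02 to 1.11), which turned to 0.955 with TMM scaling factors. It was below 1 in both EGFP classes taken apart, 0.949 (0.901 to 0.999) without EGFP and 0.896 (0.816 to 0.985) with it. That sum was carried by Scd1, the desaturase that makes oleate, at 467 and 424 CPM, a ratio of 0.908 (0.855 to 0.965). Without Scd1 the ratio of the sum over all hepatocyte barcodes was 1.24. By gene, 8 of 10 had a ratio above 1, beside 59.0% of all genes. The median log2 ratio was 0.77, beside 0.13 over all genes. Of the 10 genes, 3 reached 2-fold higher, beside 9.46% of all genes, and 1 was 2-fold lower, beside 3.25%. The 3 that were 2-fold higher were Elovl5, an elongase of polyunsaturated chains, at 32.4 and 81.8 CPM (2.53, 2.09 to 3.07), Fads1, a desaturase of the same chains (2.51, 1.85 to 3.46), and Acly, which supplies acetyl-CoA (2.36, 1.83 to 3.05). Fads2, the partner desaturase, was just outside 2-fold at 1.93 (1.48 to 2.53), where Acat2 was just inside. Acacb, Fasn and Me1, for malonyl-CoA at mitochondria, palmitate and NADPH, had ratios of 1.76 (1.43 to 2.17), 1.66 (1.44 to 1.91) and 1.59 (1.15 to 2.21). Acaca, the carboxylase of the cytosol, was at 93.5 and 94.7 CPM, a ratio of 1.012 (0.886 to 1.16) that was below 1 with TMM factors or with totals that leave out mitochondrial genes, Malat1 and Neat1.

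Elovl6 (chr3:129532355-129638495), which lengthens palmitate to stearate, went the other way. It stood at 124 CPM (561 UMIs, scramble label) and 35.9 CPM (181 UMIs, shBicd2 label), a ratio of 0.289 (0.243 to 0.342). It was detected in 16.7% (15.3% to 18.3%) and 6.09% (5.20% to 7.07%) of hepatocyte barcodes. Over all hepatocyte barcodes the elongases Elovl5 and Elovl6, which act on different chains, lay on opposite sides of 1 with intervals that do not overlap. Elovl5 did not stay above 1 in each subset described below.

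Other genes of the pathway were listed apart from the 34. Of 11 further sterol supply genes with at least 50 UMIs, 9 were higher, beside 59.0% of all genes, and 5 reached 2-fold, beside 9.46%. The same shares of all genes stand beside the counts of the lists that follow. Soat2, which makes cholesterol esters, was at 1.33, and Cyp27a1, which oxidises cholesterol towards bile acids, was lower at 0.456 (0.418 to 0.496). Of 13 genes of SREBP processing and degradation, 5 were higher and 0 passed 2-fold, with the protease gene Mbtps1 at 1.0 and the coat gene Sec24a at 0.991. Of 17 other lipogenic genes 11 were higher, near the 59.0% of all genes, and 5 reached 2-fold, beside 9.46%. In the other direction 2 were 2-fold lower, where the share of all genes is that given above for the fatty acid branch. The sum of this list was lower, 0.720 (0.705 to 0.734). In it Mlxipl, the carbohydrate-responsive factor ChREBP, was at 0.561 (0.545 to 0.577) and Thrsp at 0.454 (0.418 to 0.494). Mlxipl held 12514 of the 21462 UMIs of this list with the scramble label and 7844 of the 17252 with the shBicd2 label. Dgat2, which makes triglyceride, was higher at 2.29 (2.13 to 2.46). Of 6 genes of LXR and its targets 5 were higher and 2 passed 2-fold, Abcg5 (2.13, 1.67 to 2.73) and Lpcat3 (2.32, 1.79 to 3.04), while Abca1 was at 0.904 (0.867 to 0.942).

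The library ratio of the sterol branch held its direction in each subset of hepatocyte barcodes. Without an EGFP UMI it was 848 and 2762 CPM, a ratio of 3.26 (3.13 to 3.39), with 16 of 19 genes past 2-fold higher beside 10.4% of all genes and 0 past 2-fold lower beside 3.06%. With an EGFP UMI it was 685 and 1544 CPM, 2.26 (2.0 to 2.55), with 12 of 16 beside 15.1% and 0 beside 3.49%. Below 1% mitochondrial UMIs the ratio was 2.72 (2.62 to 2.83), with 15 of 19 beside 9.47% and 0 beside 3.52%. At 1% or more it was 3.26 (2.91 to 3.67), with 12 of 15 beside 6.72% and 0 beside 4.8%. Nsdhl ranged from 6.13 to 12 over these 4 subsets and Hmgcs1 from 4.89 to 7.45. Sqle ranged from 1.16 to 2.53. Ebp and Stard4 did not keep their direction: they reached down to 0.973 and 0.711, in barcodes with EGFP. Elovl6 stayed below 1 in the 4 subsets, from 0.159 to 0.309, and Scd1 from 0.676 to 0.911. Elovl5 and Acaca lay on both sides of 1, from 0.958 to 2.94 and from 0.649 to 1.06. The lowest value of Elovl5 was at 1% or more mitochondrial UMIs. These subsets share barcodes and are not independent of each other.

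Clusters made without these 34 genes and without the other pathway genes differed in the levels of both branches. In the library labelled shBicd2, cluster 1 (996 barcodes, led by genes such as G0s2 and Plin2 of lipid droplets, with Nsdhl and Fdps themselves among its top 10) had a sterol level of 3890 CPM (3801 to 3980) and a fatty acid level of 638 CPM (602 to 675). Cluster 4 (583 barcodes, led by EGFP, heat shock and histone genes) had 953 CPM (906 to 1003) and 1395 CPM (1337 to 1454). Between them, 16 of 19 sterol genes were 2-fold higher in cluster 1 beside 45.6% of genes, and 1 was 2-fold lower beside 11.2%. Of the 10 fatty acid genes 3 were 2-fold higher and 2 were 2-fold lower, with a median log2 ratio of -0.05 beside 0.86 over all genes. Scd1 held 168 of the 1193 fatty acid UMIs of cluster 1 and 1309 of the 2208 of cluster 4. Cluster 14 (68 barcodes, led by Rian, Meg3 and Mirg) resembled cluster 1 with 3316 and 726 CPM, and cluster 6 (394 barcodes, led by Fmo1, Srxn1 and Nos2) was low in both at 1123 and 526 CPM. Clusters of the library labelled scramble lay between 642 and 1192 CPM of sterol genes, over 6 clusters with at least 50 barcodes. The highest, cluster 2, had 1192 CPM (1136 to 1251), about the level of cluster 6 in the other library.

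Hmgcs1 followed the branch. In the library labelled shBicd2 it stood at 606 CPM in cluster 1, 534 in cluster 14, 446 in cluster 8, 99.1 in cluster 6 and 89.1 in cluster 4. Clusters of the other library lay between 24.8 CPM (3 UMIs, cluster 7) and 111 CPM (cluster 2). Insig2 had another order, with 1199 CPM in cluster 4 and 1162 in cluster 6 against 596 in cluster 1. Scd1 was at 89.8 CPM in cluster 1, 827 in cluster 4 and 1060 in cluster 7. Elovl5 was at 24.1 CPM in cluster 1 and 190 in cluster 4. Insig2, Scd1 and Elovl5 were thus higher in cluster 4 than in cluster 1, opposite to Hmgcs1.

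Where 1 cluster held at least 50 barcodes of each library, the library ratio could be read within it. The sterol ratio was 2.48 (2.15 to 2.85) in cluster 2, 1.52 (1.30 to 1.77) in cluster 3, 2.95 (2.34 to 3.75) in cluster 7 and 3.90 (3.09 to 4.96) in cluster 8. In cluster 3, led by the interferon-induced genes Ifit1, Ifit2 and Ifit3, the sterol levels were 642 and 976 CPM, closest to each other of the 4. The fatty acid ratio within these clusters was 1.11 (0.791 to 1.51), 1.05 (0.927 to 1.19), 0.882 (0.740 to 1.05) and 0.813 (0.619 to 1.07), each with an interval that holds 1. By gene, 8 of 13 sterol genes with at least 50 UMIs were 2-fold higher in cluster 2 beside 10.5% and 1 was 2-fold lower beside 15.4%. In cluster 3 it was 1 of 5 beside 3.58% and 0 beside 13.6%, in cluster 7 it was 3 of 3 beside 11% and 0 beside 12.4%, and in cluster 8 3 of 3 beside 9.64% and 0 beside 5.02%. The sterol sum was thus higher in the library labelled shBicd2 within each of the 4 clusters. The counts by gene in clusters 7 and 8 cannot add to this, because the 50 UMIs are counted over both libraries. The 3 genes, Hmgcs1, Fdps and Msmo1, passed mainly through UMIs of the library labelled shBicd2. In cluster 7 Hmgcs1 had 73 UMIs there and 3 with the scramble label. Sterol genes left out lay on both sides of 2-fold, as Sc5d (1.35) and Nsdhl (8.12) in cluster 7. Cluster 7 holds hepatocyte and erythroid markers together.

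**Figure D2:**
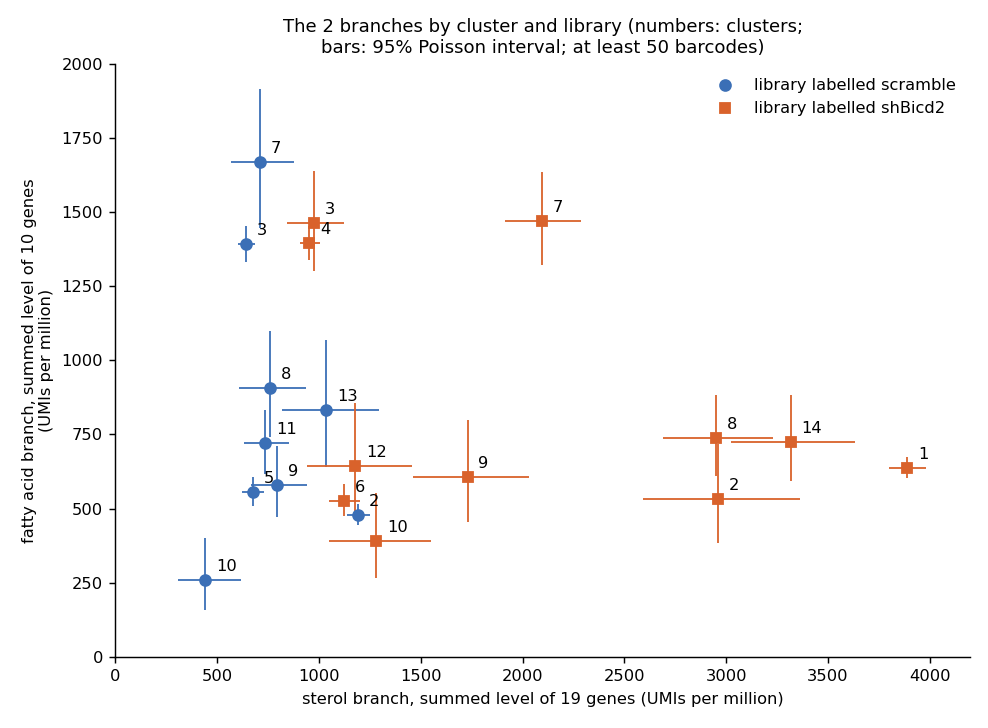
Summed level of the 19 sterol genes (horizontal) against that of the 10 fatty acid genes (vertical), in CPM, for each cluster and library with at least 50 barcodes; numbers are clusters and bars are 95% Poisson intervals. Clusters 9, 10, 12 and 13 are named for other cell classes; clusters 1 and 14 lie at 3890 and 3316 CPM of sterol genes, while clusters 3, 4 and 7 have the highest fatty acid levels.

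Barcodes with EGFP had lower sterol levels than barcodes without it. EGFP, a reporter whose vector the labels do not name, was found in 770 of 2628 hepatocyte barcodes labelled shBicd2 (29.3%) and 159 of 2425 labelled scramble (6.56%). Beside these, 8.33% (7 of 84; 3.42% to 16.4%) and 1.39% (1 of 72) of monocyte/macrophage barcodes had an EGFP UMI, at lower median depths of 806.5 and 722.5 UMIs. The part of free RNA in these shares was not tested. Among shBicd2-labelled barcodes the sterol level was 2762 CPM without EGFP and 1544 CPM with it, a ratio of 0.559 (0.536 to 0.583). Of the 19 genes 1 was higher, beside 23.2% of 8149 genes, and 12 were 2-fold lower, beside 15.7%. The median log2 ratio was -1.07 over the 19 and -0.45 over the 8149 genes. Barcodes with EGFP had more UMIs, medians of 2070.5 and 1430, fewer hepatocyte marker UMIs, 10033 and 14707 CPM, and more of the cholangiocyte list, 3281 and 1869 CPM; their part in the ratios was not tested. TMM factors raise each log2 ratio of this comparison by 0.45 and bring the branch ratio to 0.765. At least 2 EGFP UMIs against none gave 0.364.

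Of the sterol genes, 1 was higher with EGFP. Hmgcs1 was at 406 CPM without and 194 CPM with EGFP, a ratio of 0.477 (0.424 to 0.536). Msmo1 (470 and 224 CPM) and Fdps (344 and 161 CPM) were alike at 0.476 and 0.468. Lss and Tm7sf2 had the lowest ratios, 0.409 (0.332 to 0.499) and 0.377 (0.234 to 0.585). Sc5d, at 0.856 (0.738 to 0.990), was nearest to 1 and passed to the higher side with TMM factors. Stard4, the cholesterol carrier, was higher with EGFP, 72.6 and 121 CPM, a ratio of 1.66 (1.38 to 2.01), and was also higher in the library labelled scramble, 65.3 and 170 CPM, a ratio of 2.60 (1.98 to 3.39).

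Fatty acid genes went both ways in this contrast. The branch sum was 791 CPM without and 1180 CPM with EGFP, a ratio of 1.49 (1.41 to 1.58), which was 1.08 without Scd1. Higher with EGFP were Elovl5, 47.6 and 139 CPM (2.92, 2.38 to 3.59), Scd1, 294 and 642 CPM (2.18, 2.0 to 2.38), and Elovl6, 28.5 and 48.2 CPM (1.69, 1.25 to 2.29). Elovl5 and Scd1 passed 2-fold, beside 4.31% of genes. Lower were the desaturases Fads1 (0.468, 0.312 to 0.686) and Fads2 (0.570, 0.398 to 0.801), then Me1 (0.643) and Fasn (0.818, above 1 with TMM factors). Acaca, Acacb and Acly had intervals that hold 1, and the median log2 ratio of the 10 genes was -0.10. Of the regulators Insig2 was higher, 742 and 1032 CPM (1.39, 1.31 to 1.48), while Scap (0.626), Srebf2 (0.657) and Insig1 (0.792, above 1 with TMM factors) were lower.

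The same contrast in the library labelled scramble, with 159 barcodes bearing EGFP, gave 848 and 685 CPM for the sterol branch, a ratio of 0.808 (0.714 to 0.911). Of 16 sterol genes with at least 50 UMIs 2 were higher, beside 26.8% of 7471 genes, and 6 were 2-fold lower, beside 25.2%. The median log2 ratio was -0.78 over the 16 and -0.43 over the 7471. Its fatty acid ratio was 1.58 (1.44 to 1.73), with Scd1 at 1.79 (1.58 to 2.01), Elovl6 at 1.82 (1.43 to 2.29), Elovl5 at 1.80 (1.10 to 2.83) and Acaca at 1.73 (1.30 to 2.26). Insig2 was higher there too, 323 and 734 CPM (2.27, 2.0 to 2.57), and passed 2-fold beside 3.61% of genes. Scap (0.355) and Srebf2 (0.437) were lower, as in the other library.

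**Figure D3:**
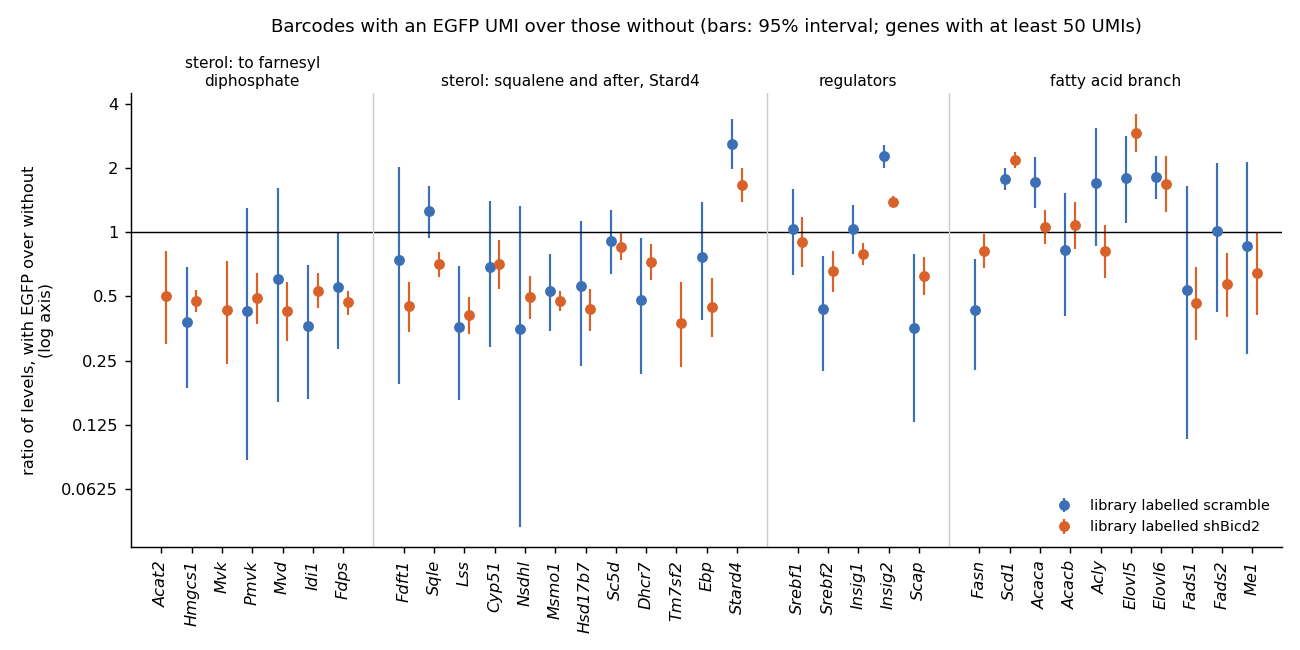
Ratio of levels in hepatocyte barcodes with an EGFP UMI over those without, per gene and library, on a log axis, with 95% intervals; genes with under 50 UMIs in a library are left out. Scaled by total UMIs, sterol genes lie below 1 except Stard4 and, in the library labelled scramble, Sqle, while Scd1, Elovl5, Elovl6 and Insig2 lie above 1 in both libraries.

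Within the clusters with at least 50 barcodes of each kind the EGFP ratio was near 1, with intervals that hold 1. In cluster 1 of the library labelled shBicd2, 141 barcodes with EGFP had a sterol level of 4049 CPM and 855 without it had 3859 CPM, a ratio of 1.05 (0.986 to 1.12). In cluster 4 the levels were 946 CPM in 416 barcodes with EGFP and 976 CPM in 167 without, a ratio of 0.969 (0.863 to 1.09), and in cluster 6 the ratio was 1.12 (0.95 to 1.32). The fatty acid ratios within these clusters were 1.03 (0.879 to 1.2), 0.927 (0.843 to 1.02) and 1.13 (0.881 to 1.43). Cluster 3 of the library labelled scramble had a sterol ratio of 1.03 (0.885 to 1.2) and a fatty acid ratio of 1.04 (0.943 to 1.16). Of sterol genes with at least 50 UMIs, 0 of 19, 0 of 8 and 0 of 5 were past 2-fold in clusters 1, 4 and 6. Beside them, 2.34%, 0.464% and 2.42% of genes were 2-fold lower and 0.665%, 0.927% and 0.525% 2-fold higher. In cluster 3 it was 1 of 5 lower beside 3.23% and 0 higher beside 0.353%. EGFP barcodes were also spread differently over the clusters. In the library labelled shBicd2, 54.0% of them lay in cluster 4 and 18.3% in cluster 1, against 8.99% and 46.0% of barcodes without EGFP. With the scramble label 79.2% of EGFP barcodes lay in cluster 3, against 23.1% of the others. The part of this spread in the EGFP ratio of all hepatocyte barcodes was not tested. By mitochondrial share, the EGFP ratio of the sterol branch was 0.519 (0.496 to 0.543) below 1% of UMIs, where 14 of 19 genes were 2-fold lower beside 19.4% and 0 higher beside 4.45%. At 1% or more it was 0.909 (0.811 to 1.02), where 0 of 13 genes passed 2-fold, beside 4.17% lower and 2.81% higher.

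By mitochondrial share, the part of a barcode's UMIs from mitochondrial genes, the branch sums differed by less than 2-fold. Barcodes at 1% or more numbered 378 (scramble label) and 545 (shBicd2 label), against 2047 and 2083 below 1%. They were shallower, with medians of 1094 and 1062 UMIs against 1689 and 1782, and held more hepatocyte marker RNA, 21386 and 28299 CPM against 9028 and 10328. Their erythroid markers were also higher, 523 and 1057 CPM against 147 and 212, as were neutrophil markers, 136 and 446 against 50.9 and 168. The part of depth and of these markers in the ratios that follow was not tested. The sterol level was 850 CPM below 1% and 694 CPM at 1% or more with the scramble label, a ratio of 0.817 (0.730 to 0.912). With the shBicd2 label it was 2313 and 2265 CPM, a ratio of 0.979 (0.929 to 1.03), which was 1.11 with TMM factors. None of the 16 and 19 sterol genes with at least 50 UMIs passed 2-fold, beside 6.4% and 5.42% of genes 2-fold lower and 5.05% and 5.39% 2-fold higher. The median log2 ratios were -0.26 and -0.07 over these genes and -0.15 and -0.18 over all genes tested.

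In the fatty acid branch 1 of 10 genes passed 2-fold by mitochondrial share in each library, a different gene in each. The branch sums were 835 and 1232 CPM with the scramble label, a ratio of 1.48 (1.35 to 1.61) that was 1.13 without Scd1, and 912 and 1081 CPM with the shBicd2 label, a ratio of 1.19 (1.10 to 1.28) that was 0.878 without Scd1. Scd1 was higher at 1% or more in both, 428 and 773 CPM (1.81, 1.61 to 2.02) and 390 and 623 CPM (1.60, 1.44 to 1.77). Fads2 was higher in both as well, 14.7 and 49.3 CPM (3.35, 2.01 to 5.43; past 2-fold beside 5.05% of genes) and 33.0 and 52.9 CPM (1.60, 1.09 to 2.30). Elovl6 was 2-fold lower with the shBicd2 label, 39.3 and 16.3 CPM (0.414, 0.210 to 0.743; beside 5.42% of genes), and at 0.807 (0.594 to 1.07) in the library labelled scramble. Elovl5 was on opposite sides of 1, 29.5 and 55.2 CPM (1.87) with the scramble label and 86.7 and 52.9 CPM (0.610) with the shBicd2 label. Me1, the NADPH source, stood at 1.94 (1.21 to 3.04) in the library labelled shBicd2. Outside this branch, Insig2 was lower at 1% or more in both libraries, 0.747 (0.624 to 0.889) and 0.629 (0.567 to 0.696), as was Stard4, 0.602 (0.380 to 0.912) and 0.637 (0.458 to 0.868), while Ebp had ratios of 1.5 (0.945 to 2.29) and 1.72 (1.25 to 2.33).

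**Figure D4:**
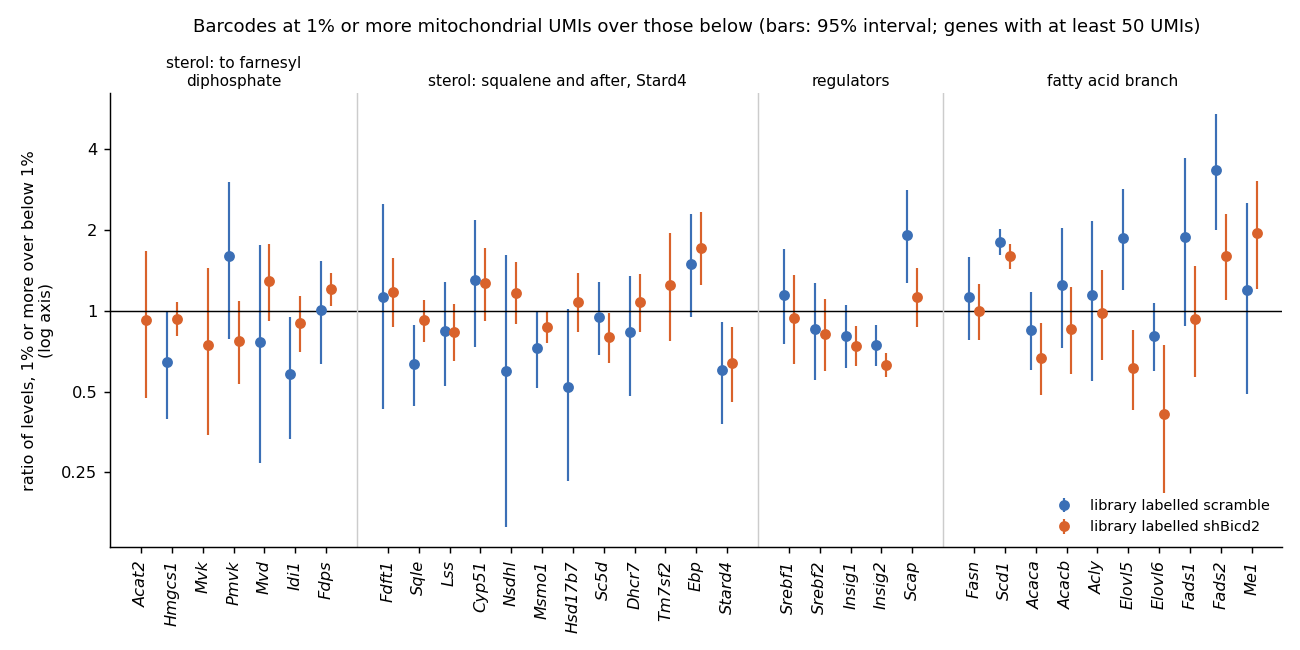
Ratio of levels in hepatocyte barcodes at 1% or more mitochondrial UMIs over those below 1%, per gene and library, on a log axis, with 95% intervals; genes with under 50 UMIs in a library are left out. Scd1 and Fads2 lie above 1 and Insig2 and Stard4 below 1 in both libraries, while Elovl5 lies at 1.87 in the library labelled scramble and 0.610 in the library labelled shBicd2.

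Barcodes of other cell classes serve as a background that free RNA can reach, though sterol synthesis is not restricted to hepatocytes. Monocyte/macrophage barcodes (72 and 84) had sterol levels of 441 CPM (306 to 616) and 1282 CPM (1049 to 1552), which is 0.530 and 0.556 of the hepatocyte level. Hepatocyte markers in these barcodes were at 0.528 and 0.720 of their hepatocyte level. A mixed cluster with erythroid and B cell markers (117 and 71 barcodes) had 795 and 1730 CPM of sterol genes, 0.955 and 0.750 of the hepatocyte level, with hepatocyte markers at 0.747 and 0.757. The sterol sum was thus higher in the library labelled shBicd2 in these classes too, at 0.530 to 0.955 of the hepatocyte level beside 0.528 to 0.757 for hepatocyte markers. Clustered at resolution 0.5, a class named neutrophil that also held endothelial markers (54 and 76 barcodes) had 1089 and 2414 CPM. These are 1.31 and 1.05 of the hepatocyte level, with hepatocyte markers at 0.918 and 0.915. At resolution 1.0, neutrophil barcodes numbered 6 and 45 and endothelial barcodes 50 and 36. The levels of the joint class may thus come from different mixes of cells in each library. A stellate/fibroblast class at resolution 0.5 (59 and 79 barcodes) had 386 and 1251 CPM, 0.464 and 0.543 of the hepatocyte level. Its hepatocyte markers were at 0.511 and 0.630. How much of the sterol sum in these classes was free RNA was not tested.

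Within single barcodes, sterol genes were found together more often in the library labelled shBicd2. Such shares rise with the summed sterol level itself, 832 and 2306 CPM here, the contrast that chose the genes. They restate that level and are no separate result. Barcodes were cut down at random to 1000 UMIs each, without 567 and 654 that were shallower. Of 1858 barcodes labelled scramble 16.4% (14.8% to 18.2%) held at least 2 different sterol genes, and of 1974 labelled shBicd2 49.8% (47.6% to 52.1%), or 33.4% and 64.1% unthinned. At least 5 were found in 0.646% (0.334% to 1.13%) and 9.27% (8.03% to 10.6%). Against these, 4.76% (1 of 21; 0.120% to 23.8%) and 46.4% (13 of 28; 27.5% to 66.1%) of monocyte/macrophage barcodes held at least 2, and 21.1% (12 of 57) and 51.7% (15 of 29) of the mixed cluster. Thinning left out 51 and 56 shallower monocyte/macrophage barcodes and 60 and 42 of the mixed cluster. So few barcodes leave wide intervals, and the comparison could show only a large difference. The shares over all hepatocyte barcodes were not above this background beyond counting error. Cluster 1 of the library labelled shBicd2 was above it, with 77.5% (74.4% to 80.4%) of 783 barcodes, and cluster 4 was at 21.1% (17.8% to 24.7%) of 559.

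At equal depth, co-detection was lower in barcodes with EGFP. The summed sterol level was also lower with EGFP in both libraries, and these shares are not separate from it. With the shBicd2 label at least 2 sterol genes were found in 58.8% (56.0% to 61.4%) of barcodes without EGFP and 32.6% (29.1% to 36.3%) with it. With the scramble label the shares were 17.2% (15.5% to 19.1%) and 6.94% (3.38% to 12.4%, 10 of 144). Unthinned, with deeper barcodes on the EGFP side, they were 65.7% (63.5% to 67.9%) and 60.1% (56.6% to 63.6%) with the shBicd2 label. These intervals only just overlap, which does not show that the shares are equal. With the scramble label the unthinned shares were 33.5% and 32.1%. Below 1% and at 1% or more mitochondrial UMIs they were 49.3% and 52.9% in the library labelled shBicd2, with intervals that overlap, and 17.3% (15.5% to 19.2%) and 9.57% (5.94% to 14.4%) in the library labelled scramble. At least 1 fatty acid gene was found in 50.2% and 53.1% of thinned hepatocyte barcodes, scramble label first.

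**Figure D5:**
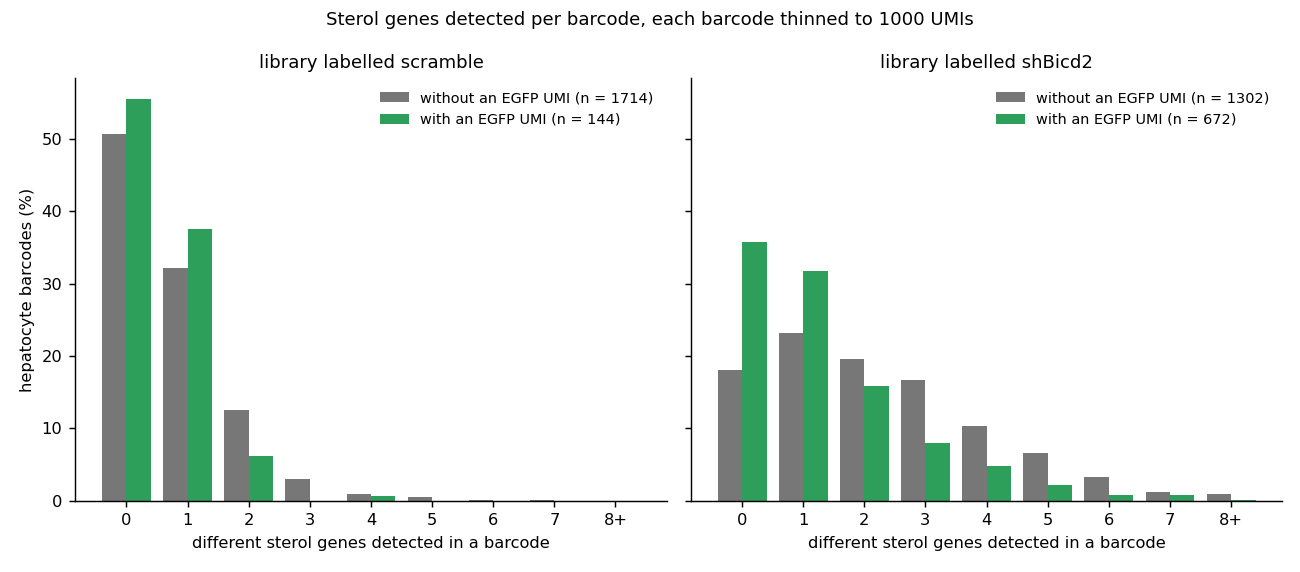
Share of hepatocyte barcodes (vertical, percent) by the number of different sterol genes detected (horizontal), each barcode thinned to 1000 UMIs, without and with an EGFP UMI in each library. With the shBicd2 label, 39.2% of barcodes without EGFP and 16.7% of those with it held 3 or more, against 4.61% and 0.694% in the library labelled scramble.

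For pairs of genes, the share of barcodes with both was divided by the product of the single shares, a quotient of 1 when detections are unrelated, over pairs for which that product gives at least 5 barcodes. With the shBicd2 label, 121 of 137 sterol pairs were above 1, with a median of 1.42 and a range of 0.632 to 2.64. Sterol genes with fatty acid genes had a median of 1.013 over 131 pairs, and fatty acid genes among themselves 1.07 over 23. With the scramble label the medians were 1.23 over 28 sterol pairs (23 above 1), 0.839 over 46 mixed pairs and 1.06 over 12 fatty acid pairs. Within cluster 1 the sterol median was 1.10 over 134 pairs, 97 of them above 1, and that of sterol with fatty acid genes was also 1.10 over 87. Within cluster 2 of the library labelled scramble the sterol median was 1.42 over 12 pairs. Genes with higher levels pass the rule of 5 barcodes more easily, so the libraries are read over different pairs and their medians are not comparable. Pairs of other genes were not computed as a background. Pairs share barcodes and genes, and these values carry no test.

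By gene, another sterol gene was found in 89.4% (86.1% to 92.2%) of barcodes with Hmgcs1 and 69.3% (67.0% to 71.6%) without it in the library labelled shBicd2. For the library labelled scramble these were 68.2% (58.5% to 76.9%) and 45.8% (43.4% to 48.2%). Fdps, Msmo1 and Insig1 showed the same direction in both libraries, and Sqle less clearly, 78.3% (73.5% to 82.6%) and 70.9% (68.6% to 73.1%), then 50% (42.1% to 57.9%) and 44.0% (41.6% to 46.4%). Scd1 showed the opposite, 65.1% (60.8% to 69.3%) with it and 79.6% (77.4% to 81.6%) without, then 42.9% (38.7% to 47.3%) and 51.3% (48.6% to 54.0%). Insig2, unlike Insig1, was on the side of Scd1 in the library labelled shBicd2, 70.6% (67.6% to 73.6%) with it and 80.5% (78.0% to 82.8%) without. Fasn differed by library: 85.9% (80.1% to 90.6%) with it and 74.9% (72.8% to 76.9%) without in the library labelled shBicd2, but 41.3% (32.4% to 50.6%) and 49.5% (47.1% to 51.8%) in the library labelled scramble, with intervals that overlap.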

How the data were processed

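RNA of single barcodes was measured in 2 mouse liver libraries (10x 3′ kit 3.1, per the labels' protocols). The authors deposited UMI counts by gene and barcode without normalization. Their software was Cell Ranger 6.1.2, per the file headers, and the submitters' processing notes list version 6.0.1, Seurat 4.0.3 and mm10. For introns, whether they were counted was not stated in any source used; counted introns would add unspliced RNA of long genes. Total counts were 5086306 (scramble label) and 5624055 (shBicd2 label).

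Filters required 200 genes or more and 25% mitochondrial UMIs or less. Scrublet (scanpy 1.11.5) marked 62 and 73 doublets, which were removed. Clustering (leidenalg 0.10.2, 30 components, 15 neighbours, resolution 1.0) used 2000 variable genes, none of them mitochondrial, EGFP, one of these 34 or another listed pathway gene, and gave 16 clusters. Fixed marker lists named a cluster where at least 3 markers and 40% of a list stood out; a mixed name needed 60% of a further list, a rule set after seeing the data. Levels are UMIs of a population over its total. Intervals are exact Poisson (levels), Clopper-Pearson (shares) and conditional binomial (ratios), from scipy 1.17.1. Ratio intervals were tried on simulated Poisson counts, for which they are made. These counts hold no variation between barcodes or animals, so the trial says nothing of such variation. Log2 ratios had 0.5 UMIs added. TMM factors (edgeR 4.0.16), other totals, weights, filters and subsets were alternatives. The 34 genes and the lists were chosen with earlier results of these data known. Text names the 34 and, of each further list, up to 5 genes with the most UMIs, of which some are not reported here; 56 of 57 listed genes were found. Gene spans are from GENCODE on GRCm38, the assembly behind mm10.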

Additional observations from a re-analysis of the deposited data

Results flagged for a closer look

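Elovl5, the elongase of polyunsaturated chains, lay on opposite sides of 1 by mitochondrial share in the 2 libraries, with both intervals clear of 1. Its ratio of barcodes at 1% or more over those below was 1.87 (1.19 to 2.85; 29.5 and 55.2 CPM) in the library labelled scramble and 0.610 (0.427 to 0.850; 86.7 and 52.9 CPM) in the library labelled shBicd2. The level at 1% or more was thus close in both libraries, and the levels below 1% were apart. The difference between the libraries was not tested.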

How the results depend on the processing

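No paired analysis was possible because each group has 1 library and no result comes from a test. Of 124 recomputed values, 75 stayed within the interval of the main value and 40 left it. A further 9 passed to the other side of 1 from a main ratio whose interval was clear of 1. Ratios whose interval held 1 are not among these 9. The sterol mitochondrial ratio with the shBicd2 label, for instance, went from 0.979 to 1.11 with TMM. For median log2 ratios the interval spans genes and is not counting error. The cause of these moves was not tested. The sterol library ratio of 2.77 was 2.48 with TMM factors, 3.26 without EGFP barcodes, 3.26 at 1% or more mitochondrial UMIs, and 2.48, 1.52, 2.95 and 3.90 in clusters 2, 3, 7 and 8. The fatty acid library ratio of 1.07 was 0.955 with TMM, 0.949 without EGFP barcodes, 0.877 at 1% or more, 0.882 and 0.813 in clusters 7 and 8, and 1.24 without Scd1.

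The sterol EGFP ratio of 0.559 was 0.588 over all kept barcodes, 0.765 with TMM, 0.603 with barcodes weighted equally, 0.364 for at least 2 EGFP UMIs, 0.808 in the other library, 0.519 and 0.909 below and from 1% mitochondrial UMIs, and 1.05, 0.969 and 1.12 in clusters 1, 4 and 6. That of the fatty acid branch, 1.49, was 2.04 with TMM, 1.08 without Scd1, 1.69 for at least 2 EGFP UMIs, 1.58 and 1.21 below and from 1%, and 1.03, 0.927 and 1.13 in those clusters.

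With the shBicd2 label the sterol mitochondrial ratio of 0.979 was 0.895 over all kept barcodes, 1.11 with TMM, 0.865 at 5%, and 0.813 without EGFP barcodes. The fatty acid one of 1.19 was 1.34 with TMM, 1.29 with equal weights, 0.878 without Scd1, 1.10 at 0.5%, 1.56 at 5% and 1.38 without EGFP barcodes. With the scramble label its 1.48 was 1.64 with TMM, 1.13 without Scd1, 1.26 at 0.5% and 1.86 at 5%. Shares of barcodes with at least 2 sterol genes, 16.4% and 49.8%, were 6.85% and 28.3% at 500 UMIs and 33.4% and 64.1% unthinned. Ratios within clusters, EGFP ratios at 1% or more and another random seed were added after seeing the data. Clustering at resolution 0.5 kept a mixed hepatocyte and erythroid class, whose levels moved by less than counting error (sterol 683 and 2095 CPM), but gave no separate monocyte/macrophage class and no mixed erythroid and B cell class.

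TMM factors shift log2 ratios by -0.16 (libraries), 0.45 (EGFP) and 0.15 and 0.17 (mitochondrial share). Under TMM these genes passed to the other side of 1: Acaca between libraries; Sc5d, Srebf1, Insig1, Fasn and Acly by EGFP; Sc5d by mitochondrial share with the scramble label; and Acat2, Hmgcs1, Idi1, Sqle, Srebf1, Fasn, Acly and Fads1 with the shBicd2 label. Depth limits single genes: Mvk had 13 UMIs in 1 library, and intervals cover counting error alone.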
